A study of Homo sapiens with 16 samples.

Results

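The regions described here are transcription start site (TSS) windows that lie where the human genome holds few genes. The TSS table of the series gives reads in 2000 bp windows, each centred on an annotated start, and it holds 237274 distinct windows. The windows on chromosomes 1 to 22 were placed in 1 Mb bins by the position of the start, and a bin with 20 or fewer distinct windows was taken as gene-poor. After windows of genes named LINC or MIR and windows in the first and last 2 Mb of each chromosome were left out, 5111 windows in 505 gene-poor bins remained. They belonged to 3079 Ensembl genes, and 42.3% of the windows had no gene symbol. Since windows overlap where a gene has several starts, the 5111 windows covered 3704 separate loci. They were compared with 65269 gene-dense windows in 301 bins that hold 150 or more windows. The rule used the position and name of a gene and no read count, although it was drawn up with earlier results of these data known. Windows in bins of exactly 20 windows, just inside the limit, held 18.8 ChIP and 26.9 input reads on average per library, and windows in bins of 21, just outside it, held 18 and 26.1.

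The study asked how loss of LEO1 and serum deprivation affect histone H3 dimethylated at lysine 9 (H3K9me2) in BJ-5ta cells, human foreskin fibroblasts immortalized with telomerase. LEO1 is a subunit of the PAF1 complex, which travels with RNA polymerase II during elongation. Wild type cells were compared with ΔLEO1 cells, a single clone (clone 13) edited with CRISPR/Cas9 guides to the first exons of LEO1. Both were grown either in 10% serum or for 10 days in 0.1% serum, and each of the 4 conditions had a ChIP and an input library of letter A and of letter B, 16 libraries in all. The GEO labels name the antibody only as H3, while the methods of the study describe H3K9me2 ChIP. Nothing states that A and B came from separate cultures, so p-values over libraries measure the spread between these libraries only, and the ΔLEO1 values describe 1 clone. ChIP and input DNA carry no expression values, so the cell type could not be checked against its markers.

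H3K9me2 is laid down mainly by the G9a and GLP methyltransferases and marks broad domains of silent chromatin. In differentiated cells such domains fill much of the gene-poor genome, often at the nuclear lamina, and they stop at active promoters. Gene-poor megabases of the human genome are rich in long neuronal adhesion genes, in pseudogenes and in LINE and LTR repeats, while CpG islands mark the starts of most broadly expressed genes.

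Promoter sequences were available for 296 of the windows (RefSeq, GRCh38.p14), and 6 of these are shown because their genes stood at either end of the ChIP over input range. Each run is the 250 bases before the start, 5′ to 3′ on the strand of the gene, with CpG dinucleotides in capitals.
EPHA6, chr3:96814344-96814593, plus strand: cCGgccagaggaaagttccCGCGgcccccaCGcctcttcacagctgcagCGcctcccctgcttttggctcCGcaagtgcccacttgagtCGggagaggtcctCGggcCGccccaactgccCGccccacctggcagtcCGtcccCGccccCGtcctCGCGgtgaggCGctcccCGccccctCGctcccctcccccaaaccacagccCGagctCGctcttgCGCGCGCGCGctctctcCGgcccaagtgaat
FERD3L, chr7:19145422-19145671, minus strand: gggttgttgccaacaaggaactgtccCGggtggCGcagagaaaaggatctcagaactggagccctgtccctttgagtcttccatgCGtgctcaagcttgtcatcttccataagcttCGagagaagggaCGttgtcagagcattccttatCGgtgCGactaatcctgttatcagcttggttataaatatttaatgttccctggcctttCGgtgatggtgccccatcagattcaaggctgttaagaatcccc
PRDM9, chr5:23507359-23507608, plus strand: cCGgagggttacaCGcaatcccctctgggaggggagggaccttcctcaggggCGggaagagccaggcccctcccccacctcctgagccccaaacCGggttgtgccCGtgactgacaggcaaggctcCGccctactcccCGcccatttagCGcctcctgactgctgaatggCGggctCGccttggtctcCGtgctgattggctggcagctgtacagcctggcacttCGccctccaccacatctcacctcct
LCORL, chr4:18021756-18022005, minus strand: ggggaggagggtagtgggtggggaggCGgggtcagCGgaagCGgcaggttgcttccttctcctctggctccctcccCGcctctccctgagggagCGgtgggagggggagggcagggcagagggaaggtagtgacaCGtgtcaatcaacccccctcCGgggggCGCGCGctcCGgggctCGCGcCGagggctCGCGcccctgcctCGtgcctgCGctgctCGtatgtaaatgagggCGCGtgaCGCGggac
PCDH10-DT, chr4:133149117-133149366, minus strand: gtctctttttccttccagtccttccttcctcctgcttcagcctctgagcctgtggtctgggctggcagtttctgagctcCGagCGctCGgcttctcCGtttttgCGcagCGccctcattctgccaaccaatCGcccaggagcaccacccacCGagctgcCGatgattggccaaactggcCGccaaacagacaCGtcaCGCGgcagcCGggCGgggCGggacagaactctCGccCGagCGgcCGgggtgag
PRR16, chr5:120464050-120464299, plus strand: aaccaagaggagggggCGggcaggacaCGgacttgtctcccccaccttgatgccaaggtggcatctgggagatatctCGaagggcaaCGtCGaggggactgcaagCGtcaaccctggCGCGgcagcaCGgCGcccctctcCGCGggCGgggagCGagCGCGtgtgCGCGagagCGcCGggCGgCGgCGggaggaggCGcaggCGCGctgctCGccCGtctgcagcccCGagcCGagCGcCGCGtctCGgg

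Only windows whose start lay within 100 bp of that of a promoter entry were ranked here. Among these, EPHA6 (an ephrin receptor), FERD3L (a basic helix-loop-helix factor) and PRDM9 (the meiotic histone methyltransferase) had the highest ChIP over input. LCORL (a transcription cofactor linked to body height), PCDH10-DT (the divergent transcript of PCDH10) and PRR16 had the lowest. On a log2 scale, the window of the EPHA6 start stood at 1.99 ± 0.69 (SD, n = 7 ChIP libraries), that of FERD3L at 1.96 ± 0.35 and that of PRDM9 at 1.75 ± 0.38. The LCORL window stood at -3.13 ± 1.47, the PCDH10-DT window at -3.05 ± 1.10 and the PRR16 window at -3.03 ± 1.43. The 3 depleted promoters held 23, 20 and 34 CpG dinucleotides in the printed bases. The enriched ones held 26, 8 and 12, so that a promoter as rich in CpG as that of EPHA6 was among the most enriched.

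One ChIP library, ΔLEO1 in 10% serum of letter A, held only 3 reads in all 5111 windows and was left out, which leaves 7 ChIP libraries and 8 inputs. ΔLEO1 in 10% serum is therefore represented by 1 ChIP library. The other ChIP libraries held 1895572 to 3266061 reads over all distinct windows, and the inputs held 2844483 to 7947289. Gene-poor windows received 80856 to 121484 ChIP reads per library, a median of 20 reads in a window. Of the members, 37 had no read in any input and 41 had none in any of the 7 ChIP libraries. The reads carried no molecular identifiers, so all counting errors are lower limits. Values are given as reads per 1000000 reads in distinct windows (CPM), a scale that shows where a library's reads lie and cannot show a rise or fall of the mark over the whole genome.

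Gene-poor windows held more H3K9me2 reads than gene-dense windows in every library, by a factor of 1.89 to 2.43. In wild type cells in 10% serum, a gene-poor window held 8.44 CPM in library A and 8.60 CPM in library B, and in the ΔLEO1 library in 10% serum it held 8.35 CPM. In 0.1% serum, the wild type libraries held 7.56 and 7.70 CPM and the ΔLEO1 libraries 7.09 and 7.36 CPM. All 7 values lay far above the gene-dense windows, which held 3.54 to 3.75 CPM. Input reads were spread much more evenly, at 3.95 to 4.86 CPM in gene-poor and 4.33 to 4.84 CPM in gene-dense windows.

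Divided by the input of the same condition and letter, the log2 difference between gene-poor and gene-dense windows was 1.36 and 1.57 in wild type cells in 10% serum, 1.44 in ΔLEO1 cells in 10% serum, 0.97 and 1.04 in wild type cells in 0.1% serum, and 0.96 and 1.15 in ΔLEO1 cells in 0.1% serum. The mean was 1.21 ± 0.25 (SD, n = 7), and all 7 libraries lay on the same side of zero (two-sided exact sign-flip permutation test, p = 0.0156, the smallest p that 7 libraries allow). The same direction held in all 7 libraries on each of the 19 chromosomes with at least 20 windows of each kind, from 0.85 on chromosome 4 to 1.60 on chromosome 16. Leaving the input out gave a mean of 1.12.

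The reads per window fell step by step with the number of windows in the megabase. Windows in bins of 1 to 20 windows held 7.87 ± 0.588 CPM of ChIP reads (SD, n = 7), those in bins of 21 to 50 held 5.96 ± 0.124, those in bins of 51 to 100 held 5.05 ± 0.0532, those in bins of 101 to 149 held 4.35 ± 0.103 and those in bins of 150 or more held 3.62 ± 0.067. The mean input stayed between 4.43 and 4.66 CPM over the same 5 classes. Among the gene-poor windows themselves the mean level was higher in bins of 10 or fewer windows than in bins of 11 to 20. The 195 members in bins of 1 to 5 windows held 8.46 ± 0.881 CPM and the 974 members in bins of 6 to 10 held 8.58 ± 0.796 CPM. These SDs run over the same libraries of all conditions, and differences between these classes were not tested. The 1713 members in bins of 11 to 15 held 7.78 ± 0.571 CPM, and the 2229 members in bins of 16 to 20 held 7.58 ± 0.494 CPM.

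**Figure D1:**
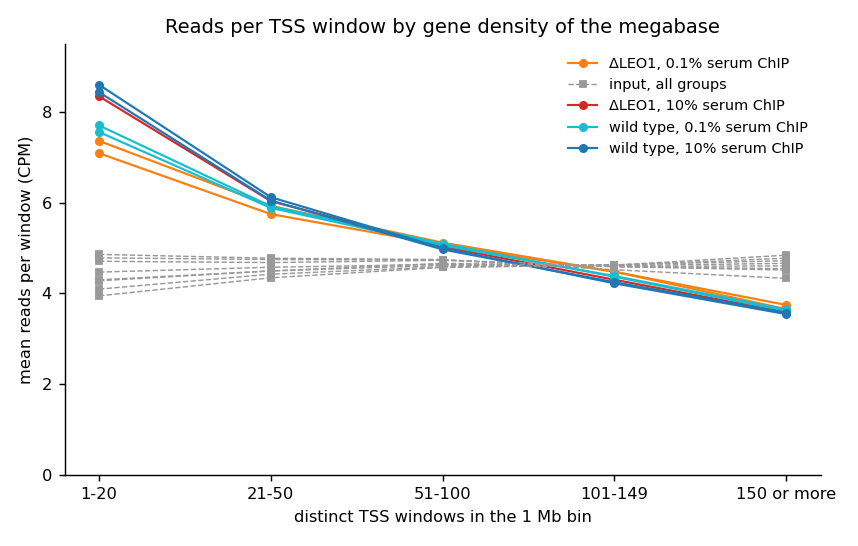
Mean reads per TSS window (CPM, vertical axis) by the number of distinct windows in the 1 Mb bin (horizontal axis), with 1 line per library: 7 ChIP libraries coloured by condition and 8 inputs in grey. The ChIP lines fall from 7.09 to 8.60 CPM in the gene-poorest class to 3.54 to 3.75 CPM in the gene-densest one, and the input lines stay between 3.95 and 4.86 CPM.

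Window by window, most members were enriched over input and a small group was strongly depleted. Each distinct window was tested with edgeR's quasi-likelihood test of the 7 ChIP libraries against the 8 inputs, with Benjamini-Hochberg adjustment over all windows tested. Because both kinds of library were scaled to their typical TSS window, higher here means above the typical TSS window and not above a level of the whole genome. Of 5056 gene-poor windows tested, 4078 were higher in ChIP (80.7%), where 36.5% of all windows tested were higher. Another 418 were lower (8.27%), where 38.6% of all windows were lower. In gene-dense windows the split ran the other way, with 20.9% higher and 51.4% lower. Among the 4767 members with a mean of at least 20 input reads, the median log2 ChIP over input was 0.91, and 10% of these windows lay below -0.37. The median of the gene-dense windows was -0.67. A log2 value above 1 was reached by 40.4% of these gene-poor and by 5.05% of the gene-dense windows.

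**Figure D2:**
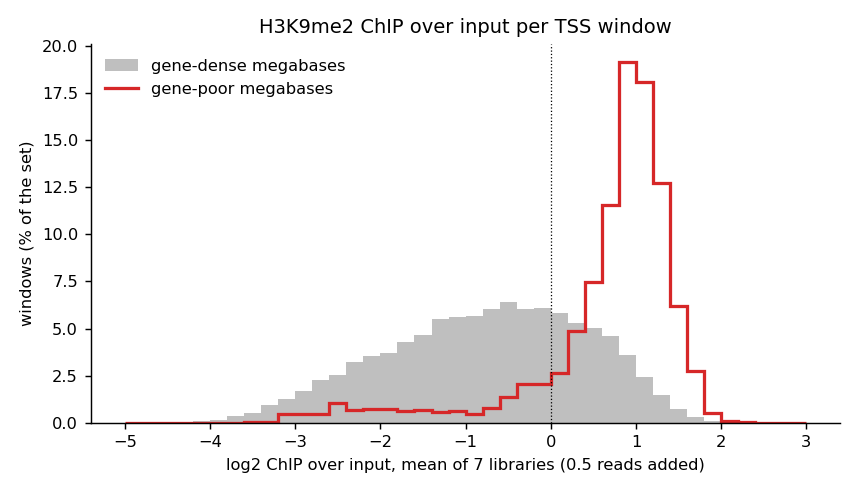
Distribution of log2 ChIP over input per window (horizontal axis, mean of 7 libraries with 0.5 reads added to each count) as a percentage of the windows of each set (vertical axis), for windows with a mean of at least 20 input reads. The gene-poor windows (red line) form a narrow peak around their median of 0.91 with a long tail to the left, and the gene-dense windows (grey) spread widely around -0.67.

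Summed over the windows of each bin, 448 of 505 gene-poor megabases were higher in ChIP than in input (edgeR, bins higher among all bins 42.8%), and 25 were lower (41.7% of all bins). These sums include the LINC and MIR windows of a bin, which are not members. Higher here means above the typical bin, and without TMM scaling 467 gene-poor bins were higher. Of 300 gene-dense megabases tested, 15 were higher and 260 lower. The 3 highest gene-poor megabases were chromosome 13 from 64000001 to 65000000, which holds LGMNP1, chromosome 5 from 12000001 to 13000000, which holds RNU6-679P, and chromosome 3 from 96000001 to 97000000, which holds EPHA6 and 5 pseudogenes. Their log2 ChIP over input was 1.63 ± 0.09 (SE), 1.49 ± 0.07 and 1.43 ± 0.06. The lowest was a megabase of chromosome 10 at -1.25 ± 0.13, whose only member gene with a symbol is ZWINT (a kinetochore protein needed in mitosis). Next came a megabase each of chromosomes 9 and 2, at -1.11 ± 0.24 and -1.11 ± 0.11, whose member windows carry no symbol. The chromosome 9 bin held only 6 to 20 reads in each ChIP library used, and its single libraries ran from -2.37 to 0.07.

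Genes were named by 1 window each, that with the most input reads, for 1369 genes with a symbol and enough input. Enough input means a mean of 20 reads over the 8 inputs. Among these genes, the most enriched protein-coding starts were those of FERD3L, CDH7 and EPHA6. At FERD3L (chr7:19144421-19146421) the 7 ChIP libraries held 12.6 to 19.1 CPM with a median of 17.3 CPM, and the inputs 3.42 to 5.39 CPM with a median of 4.12 CPM. No ChIP library came near an input, and the fitted log2 ChIP over input was 2.02 ± 0.14 (SE, edgeR adjusted p = 2.12e-32). At CDH7 (chr18:65750012-65752012), a cadherin of the developing nervous system, ChIP libraries held 8.66 to 18.5 CPM and the median input was 3.73 CPM. The EPHA6 window (chr3:96813791-96815791) held 8.88 to 20.3 CPM against a median input of 3.79 CPM. The lowest ChIP values of CDH7 and EPHA6 also lay above every input value of the same window, which reached 4.97 and 4.79 CPM.

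The other 5 of the 8 highest genes were pseudogenes, led by CDRT15P5 on chromosome 9 with a log2 value of 2.15 ± 0.61 (SD, n = 7). RNA5-8SP2 on chromosome 16 and FRG1DP on chromosome 20 belong to families with near-identical copies, and reads of such copies could be placed at any of them, so their values are uncertain. In all, 38 members from 32 genes carried the name of such a family.

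The 8 lowest genes were ALG10, LCORL, PRR16, PCDH10, PCDH10-DT, APMAP, FBXL7 and C10orf143, with mean log2 values from -3.46 to -2.95. ALG10 (chr12:34021468-34023468), an enzyme of N-glycan assembly, held 0 to 0.919 CPM in the ChIP libraries with a median of 0.362 CPM, where the inputs held 3.20 to 6.12 CPM. PCDH10 (chr4:133148294-133150294), a protocadherin, held 0 to 1.28 CPM of ChIP reads where the median input was 5.28 CPM. APMAP, an adipocyte membrane protein, held 0 to 2.11 CPM against a median input of 6.48 CPM, and FBXL7, an F-box protein of ubiquitin ligases, held 0 to 1.58 CPM against 4.60 CPM. At ALG10 and PCDH10 every ChIP library lay below every input library. The fitted log2 values were -2.62 ± 0.29 for ALG10 (SE, edgeR adjusted p = 1.31e-15) and -2.40 ± 0.29 for PCDH10 (3.08e-14). With so few ChIP reads, these values depend on the small count added to each library.

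Depleted windows lay in enriched and in depleted megabases. The 418 lower windows belonged to 162 genes in 111 gene-poor bins, and 109 of these bins also held a window that was higher in ChIP. Summed over their windows, which include the lower ones, 60 of the 111 bins were higher in ChIP, 23 were lower and 28 were not called (edgeR). Of the 1548 members tested in these bins, 866 were higher (55.9%), compared with 80.7% of all members tested. The bins were chosen for holding a lower window, so a smaller share was set by that choice. Of the 1130 members left when the 418 lower windows are taken out, the same 866 were higher (76.6%), a share that this removal raises. ZWINT, in the lowest megabase, had 8 lower windows. Protein-coding genes made up 78.2% of the lower windows and 33.4% of all members tested.

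The megabase of FERD3L holds both kinds of start at short range. TWIST1, a mesenchymal transcription factor expressed in fibroblasts, starts at position 19117636 of chromosome 7, 27785 bp from the start of FERD3L. Its window held 0.911 to 2.14 CPM of ChIP reads with a median of 1.26 CPM, against a median input of 5.0 CPM, and the fitted log2 value was -1.47 ± 0.26 (SE, edgeR adjusted p = 7.62e-08). FERD3L, with its median of 17.3 CPM, was enriched in the same libraries in which TWIST1 was depleted. The gene ENSG00000229533, whose start lies next to FERD3L, held a median of 13.4 CPM and TMEM196, a membrane protein gene further along, 13.7 CPM. POLR1F, a subunit of RNA polymerase I, lay between both kinds at a median of 4.21 CPM and did not pass the test (adjusted p = 0.0551).

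A like pattern was seen around PCDH10 and LCORL. In the PCDH10 megabase, R3HDM2P1 and ENSG00000250191 stood at log2 values of 1.46 and 1.61, while PCDH10 and PCDH10-DT, whose windows overlap and share reads, stood at -3.10 and -3.07. In the LCORL megabase, the 2 other genes stood at 1.68 and 1.5 and LCORL at -3.14. In the EPHA6 megabase no start was depleted, and its 9 genes ranged from 1.05 to 1.89.

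Both kinds of start also occurred within single genes. Of 587 genes with at least 2 member windows tested, 56 had a window that was higher in ChIP and another that was lower, 438 had higher windows without a lower one and 59 had lower windows without a higher one (edgeR). Overlapping windows of a gene share reads, so these counts are not independent. Genes of denser megabases were not counted in this way, so these counts do not show whether mixed genes were more or less common here. NRXN3, a presynaptic adhesion protein, had 10 higher and 8 lower windows among 18, with fitted log2 values from -1.43 to 1.30. ROBO2 had 4 of each among 8 windows, from -1.60 to 0.95, and its starts span 1318 kb. ROBO1 had 6 higher and 3 lower windows among 11, from -2.62 to 1.67. TRPS1, a zinc finger repressor of skeletal development, had 3 higher and 8 lower among 12. NLGN1, a postsynaptic partner of the neurexins, had 3 higher and 7 lower among 10. For such genes the sign of the single window used to name a gene depends on which start was taken. These examples were chosen after their values were seen.

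Pseudogenes were the most uniformly enriched class. Of 977 pseudogene windows tested, 941 were higher in ChIP (96.3%) and 3 lower, and in gene-dense megabases 54.9% of pseudogene windows were higher. Of 236 lncRNA windows, 175 were higher (74.2%) and 18 lower, against 35.7% higher in gene-dense megabases. Of 1690 protein-coding windows, 1047 were higher (62.0%) and 327 lower, against 16.1% higher in gene-dense megabases. For the 2145 windows whose gene had no match in the RefSeq table, 1907 were higher (88.9%) and 70 lower, against 35.8%. Pseudogenes thus had the highest share of higher windows among the 4 classes in both kinds of megabase. Each class was higher in gene-poor than in gene-dense megabases in all 7 libraries (exact sign-flip permutation test, p = 0.0156 for each). The mean log2 difference was 1.07 ± 0.21 (SD, n = 7) for protein-coding windows, 0.86 ± 0.18 for lncRNAs, 0.63 ± 0.21 for pseudogenes and 0.89 ± 0.25 for unmatched windows.

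The contrast with gene-dense megabases was larger at CpG-rich promoters. A promoter was called CpG-rich when its 300 bases had at least 50% G and C and an observed to expected CpG ratio of at least 0.6, which applied to 60.9% of all matched promoters. Among the 296 members with a promoter, 151 were CpG-rich and 145 CpG-poor. CpG-rich members stood at a log2 ChIP over input of 0.39 ± 0.23 (SD, n = 7), while 3524 CpG-rich windows of gene-dense megabases stood at -0.85 ± 0.09. CpG-poor members stood at 0.64 ± 0.15 and 1910 CpG-poor windows of gene-dense megabases at 0.06 ± 0.06. The gene-poor excess was 1.24 ± 0.22 for CpG-rich and 0.57 ± 0.19 for CpG-poor promoters, and it was larger for CpG-rich promoters in 7 of 7 libraries (mean difference 0.67 ± 0.17, exact sign-flip permutation test, p = 0.0156). Part of this difference lay in the inputs. Their mean log2 ratio of gene-poor to gene-dense windows was -0.20 for CpG-rich and 0.14 for CpG-poor promoters. In ChIP reads alone the log2 excess was 0.79 to 1.30 for CpG-rich and 0.53 to 0.81 for CpG-poor promoters, and larger for CpG-rich ones in each library. Within gene-poor megabases the CpG-poor promoters stood above the CpG-rich ones by 0.25 ± 0.21 (exact sign-flip permutation test, p = 0.0312), with a lowest library of -0.0024, and within gene-dense megabases by 0.92 ± 0.07 (p = 0.0156). Adjusted together over the 9 comparisons of classes (Benjamini-Hochberg), the exact p of 0.0312 stayed 0.0312 and each of the others became 0.0176.

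Single CpG-rich members went both ways. Of 145 tested, 65 were higher in ChIP and 50 lower, whereas of 3382 CpG-rich gene-dense windows 317 were higher and 2348 lower. Of 144 CpG-poor members, 92 were higher and 21 lower, whereas of 1695 CpG-poor gene-dense windows 598 were higher and 550 lower. The level of the CpG-rich members varied with the condition. They held 7.37 and 6.99 CPM in wild type cells in 10% serum, 5.90 CPM in ΔLEO1 cells in 10% serum, 5.87 and 5.80 CPM in wild type cells in 0.1% serum, and 4.68 and 4.56 CPM in ΔLEO1 cells in 0.1% serum. The 4 conditions did not overlap in the order wild type 10%, ΔLEO1 10%, wild type 0.1% and ΔLEO1 0.1%, although the middle values nearly touched. This order was seen after the values were known, and an exact permutation test of 2 libraries against 2 cannot go below p = 0.333. The CpG-poor members held 6.40 to 7.26 CPM in the same libraries. CpG-rich windows of gene-dense megabases showed nearly the same order at a lower level, so it was not particular to the members. They held 2.99 and 2.96 CPM in wild type cells in 10% serum and 2.85 CPM in ΔLEO1 cells in 10% serum. In 0.1% serum they held 2.87 and 2.84 CPM in wild type and 2.69 and 2.64 CPM in ΔLEO1 cells.

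**Figure D3:**
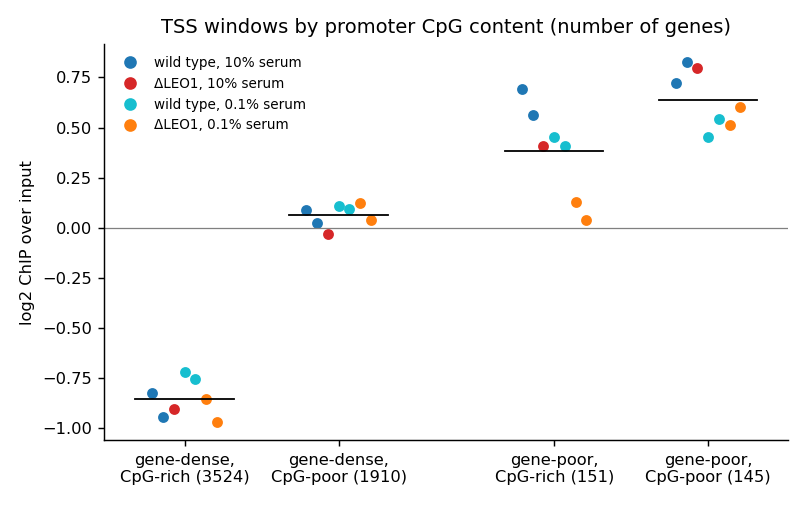
Log2 ChIP over input (vertical axis) of windows grouped by gene density of the megabase and CpG content of the promoter, with the number of genes in brackets. Each point is 1 of 7 libraries coloured by condition and the bar is their mean. CpG-rich windows stand near -0.85 in gene-dense and near 0.39 in gene-poor megabases, where the ΔLEO1 libraries in 0.1% serum are lowest at 0.13 and 0.04.

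Long neuronal adhesion and axon guidance genes are the best known residents of these megabases, and 52 of 81 genes on a list of them were members. By their 1 window each, 39 were higher in ChIP and 9 lower (edgeR), with a median log2 value of 0.77. Among all members tested 80.7% were higher and 8.27% lower, and among all windows tested 36.5% and 38.6%. The median was 0.98 over all 3079 member genes and 0.46 over the genes of all windows. The cadherins and protocadherins spanned almost the whole range. PCDH9 held 8.66 to 23.1 CPM of ChIP reads with a median input of 4.23 CPM, and PCDH20 and CDH12, both neuronal adhesion proteins, stood at log2 values of 1.53 and 1.33. CDH2, the N-cadherin that fibroblasts use, held 0 to 1.58 CPM against a median input of 4.93 CPM. ROBO1 and ROBO2, receptors for the guidance cue SLIT, stood at -2.89 and -1.57. The named windows of CDH7, PCDH9 and PCDH20 were thus enriched in all 7 libraries, and those of ROBO1, CDH2 and PCDH10 depleted in all 7. Over all their windows tested ROBO1 and ROBO2 were mixed, since 6 of 11 ROBO1 windows were higher and 3 lower, and ROBO2 had 4 of each among 8.

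**Figure D4:**
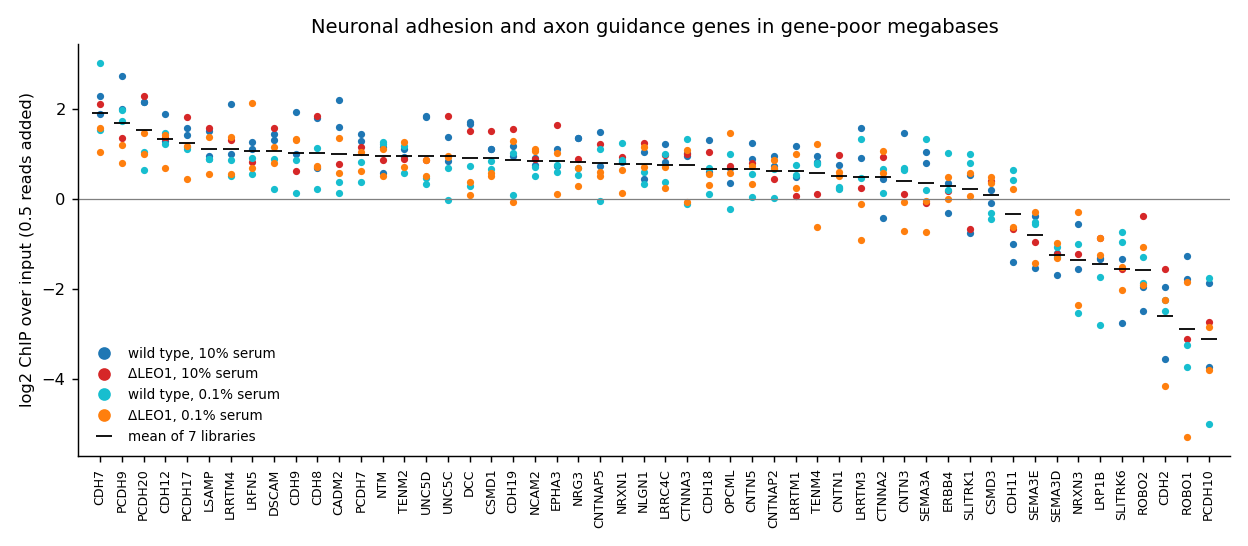
Log2 ChIP over input (vertical axis, 0.5 reads added) of the 52 neuronal adhesion and axon guidance genes in gene-poor megabases, ordered by their mean, with 1 point per ChIP library coloured by condition and a bar at the mean. The means run from 1.91 at CDH7 to -3.10 at PCDH10, and 42 of the 52 lie above zero.

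Synaptic receptors and ion channels had 16 members among 54 listed genes, 11 higher and 2 lower, with a median of 0.74. The 37 listed genes in denser bins had a median of 0.78, so by the median the members did not stand above them. HTR1A, a serotonin receptor, and GRM3, a metabotropic glutamate receptor, both stood at 1.49. GRIK2, a kainate receptor subunit, and CACNA2D1, a calcium channel subunit also used outside neurons, stood at -2.06 and -1.97 by their 1 window each. Both were mixed, since 17 of 22 GRIK2 windows tested were higher and 3 lower, and 7 of 10 CACNA2D1 windows were higher and 3 lower. The window of KCNJ3, a potassium channel, stood at a fitted log2 value of 0.05 and changed sign with the scaling. Developmental transcription factors had 13 members among 68 genes, 7 higher and 4 lower, with a median of 0.36, and the 53 listed genes in denser bins had a median of -0.02. Over all windows tested 36.5% were higher, and over all members tested 80.7% were, against 11 of 16 genes and 7 of 13 genes on these lists. IRX1, an Iroquois homeobox factor, was highest at 2.01 with a mean of 15.9 input reads, under the minimum of 20 that the ranking of genes above required, and SOX5 stood at 1.17. FIGN, ZNF804A and TWIST1 stood at -2.54, -2.50 and -1.59. Fibroblast identity genes were rare, with 3 members among 33 genes: TWIST1, CDH2 and CDH11, a mesenchymal cadherin, at -1.59, -2.60 and -0.34. None of these was higher and TWIST1 and CDH2 were lower. Over all members tested 8.27% were lower, and over all windows tested 38.6% were. The median of the 3 members was -1.59, and the 27 listed genes in denser bins had a median of -1.83, so low values were not particular to the members. These lists were drawn up with earlier results of the same data known, so their counts describe them and test nothing.

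In 0.1% serum, wild type cells carried a smaller excess of reads in gene-poor windows than in 10% serum. The ChIP reads of gene-poor over gene-dense windows fell from a ratio of 2.36 and 2.43 to 2.07 and 2.13. The input ratio moved the other way, from a mean of 0.866 to 1.05. Neither pair of libraries overlapped the other. The log2 value of ChIP over input decreased by 0.47, whereas the log2 ratio of ChIP reads alone decreased by 0.19, the rest lying in the inputs. With 2 libraries against 2 the exact permutation test gave p = 0.333, the smallest it allows. Over both genotypes, an alternative chosen after the data were seen, 4 libraries in 0.1% serum lay below all 3 libraries in 10% serum, by 0.43 with input and by 0.23 without it (two-sided exact permutation test, p = 0.0286 for each, the smallest for 4 against 3).

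**Figure D5:**
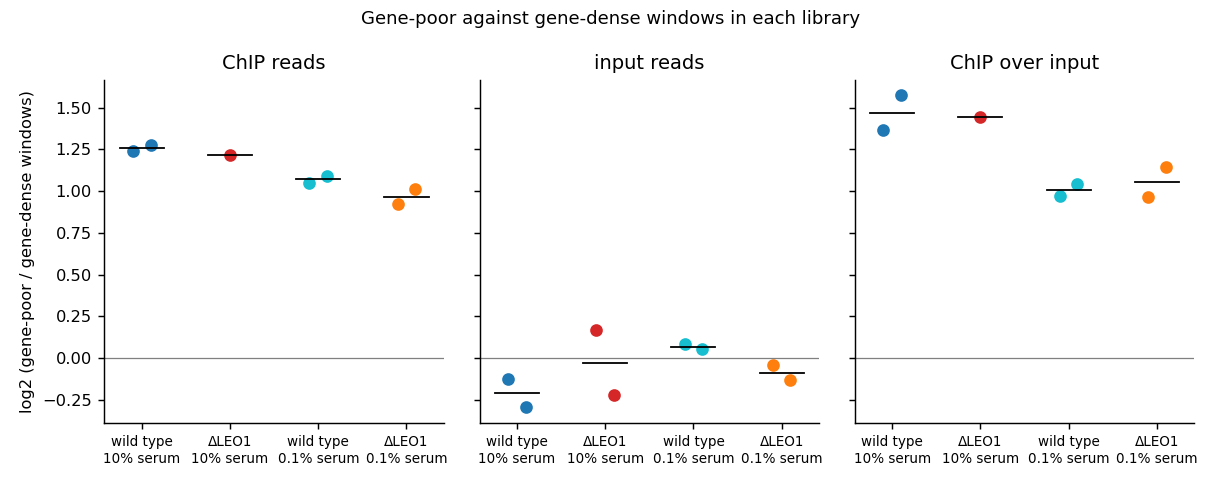
Log2 ratio of gene-poor to gene-dense windows (vertical axis) in ChIP reads, in input reads and in ChIP over input, by condition. Each point is a library (7 ChIP, 8 input) and the bar is the mean of a condition. ChIP over input runs from 1.36 to 1.57 in 10% serum and from 0.96 to 1.15 in 0.1% serum.

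By megabase the shift was broad and small. With the input difference taken off, the median log2 change of the 505 gene-poor bins in wild type cells was -0.37, and 458 of them were below zero. The median of the gene-dense bins was 0.13. In ChIP reads alone the medians were -0.16 and 0.04, and 391 of 504 gene-poor bins tested were below zero. Of the gene-poor bins, 43 were called with the input difference taken off, each lower in 0.1% serum (edgeR, 4.51% of all bins lower and 0.44% higher; in gene-dense bins 1 lower and 2 higher). DESeq2 called 35. ChIP reads alone gave 24 lower and 2 higher (2.86% of all bins lower). The count of 43 depended on single libraries. Without wild type 10% ChIP A or B it was 13 or 11, without wild type 0.1% ChIP A or B it was 4 or 9, and without wild type 0.1% input A or B it was 4 or 7. Without wild type 10% input B it was 0 (141 at an unadjusted p under 0.05), and without ΔLEO1 10% input A or B it was 123 or 124.

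Of 3 bins chosen after their values were seen, the gene-poor bin on chromosome 20 from 55000001 to 56000000, which holds RPL12P4, changed by -1.17 ± 0.20 (SE, edgeR adjusted p = 0.0128). Its windows held 233 and 190 CPM in wild type ChIP libraries in 10% serum and 154 and 137 CPM in 0.1% serum, while the inputs rose from 60.8 and 63.4 to 95.3 and 101 CPM. The bin with PER3P1 and GAPDHP68 on chromosome 7 changed by -0.81 ± 0.15 and held 150 and 152 CPM of ChIP reads in 10% serum, then 103 and 112 CPM. The bin with IRX1 on chromosome 5 held 236 and 278 CPM, then 180 and 171 CPM, a change of -0.86 ± 0.17. In each of these 3 bins the ChIP libraries of the 2 serum levels did not overlap, and the inputs rose.

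Single windows rarely passed the test for serum. In the ChIP libraries, 2 gene-poor windows rose and 15 fell of 4672 tested (0.364%, edgeR), where 0.258% of all windows tested were called and 0.0738% rose. Of the gene-poor windows, 69.1% had a change below zero, compared with 49.8% of all windows. VGLL3, a cofactor of TEAD transcription factors, was the largest rise. Its window (chr3:86967631-86969631) held 2.14 and 1.81 CPM in wild type cells in 10% serum and 7.87 and 9.27 CPM in 0.1% serum, a log2 change of 1.73 ± 0.37 (SE, adjusted p = 0.00484). The ΔLEO1 libraries held 3.17 CPM in 10% serum and 6.12 and 5.47 CPM in 0.1% serum. EEF1GP1, a pseudogene, held 2.56 and 4.34 CPM, then 9.92 and 10.1 CPM.

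PTPRD, a receptor phosphatase of synapse formation, was the largest fall, from 12.0 and 12.7 CPM to 4.45 and 4.63 CPM (-1.33 ± 0.30, adjusted p = 0.0094). PPIAP38, a pseudogene, fell from 14.1 and 14.5 CPM to 5.82 and 5.06 CPM (-1.30, adjusted p = 0.00467), and BRINP3, a neural protein, from 11.5 and 10.9 CPM to 5.82 and 2.95 CPM. ENSG00000248637 and ENSG00000237031 also fell, by 1.31 and 1.23 on the log2 scale. The other genes with a window that fell were UNC5D, SDK1, DPP10, CTNND2 and BRINP3-DT, of which the first 4 encode neuronal membrane or junction proteins. None of the gene-poor windows was called by DESeq2, with all 8 ChIP libraries or with the input difference taken off (57, 136 and 733 at an unadjusted p under 0.05, where edgeR on the 7 libraries had 625), and the count was 0 without any 1 of wild type 10% ChIP A, 0.1% ChIP A or 0.1% ChIP B and 3 without 10% ChIP B.

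Loss of LEO1 moved the reads of gene-poor windows little in 0.1% serum. The gene-poor excess of ChIP over input was 0.96 and 1.15 in ΔLEO1 cells and 0.97 and 1.04 in wild type cells. These values overlapped, and the difference was 0.05 (exact permutation test, p = 1.0, with 0.333 the smallest possible). The ratio of ChIP reads alone was 1.89 and 2.02 in ΔLEO1 cells and 2.07 and 2.13 in wild type cells, a log2 difference of -0.11 without overlap (exact permutation test, p = 0.333). In the inputs of 0.1% serum the log2 ratio of gene-poor to gene-dense reads was also lower in ΔLEO1 cells without overlap. It was -0.04 and -0.13 in ΔLEO1 and 0.08 and 0.05 in wild type inputs. The sign of the difference between genotypes therefore depended on the division by input. Over all inputs of both serum levels, ΔLEO1 and wild type libraries differed by 0.01 in this log2 ratio (4 against 4, exact permutation test, p = 0.971). Without the 464 members in stretches of chromosomes 3, 4 and 5 where ΔLEO1 inputs held fewer reads, the difference in ChIP over input was also 0.05. By megabase, 0 of 505 gene-poor bins were called with the input difference taken off (edgeR, 0% of all bins; 52 gene-poor bins at an unadjusted p under 0.05; DESeq2 also 0; with all 8 ChIP libraries 2). In ChIP reads alone, 36 gene-poor bins were lower and 1 higher of 504 (5.36% of all bins lower), with a median change of -0.06.

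Of 4672 gene-poor windows, 4 were higher and 21 lower in ΔLEO1 than in wild type ChIP libraries in 0.1% serum (0.535%, edgeR), where 0.385% of all windows tested were called and 0.0909% were higher. The 25 windows came from 2 genes that rose and 17 that fell, since windows of 1 gene can overlap. SGCD, a sarcoglycan of the dystrophin complex, was the largest rise. Its window (chr5:156326164-156328164) held 3.08 and 1.26 CPM in wild type and 11 and 8.20 CPM in ΔLEO1 cells in 0.1% serum, a log2 change of 1.79 ± 0.35 (SE, adjusted p = 0.00146). In 10% serum it held 1.71 and 4.70 CPM in wild type cells and 15.8 CPM in the ΔLEO1 library. All 3 ΔLEO1 libraries lay above all 4 wild type libraries. With the input difference taken off, SGCD rose by 2.47 (adjusted p = 0.0334). RGS17, a regulator of G protein signalling, held 3.42 and 4.63 CPM in wild type and 9.19 and 11.8 CPM in ΔLEO1 cells in 0.1% serum, and 3.84, 5.43 and 5.28 CPM in the 3 libraries of 10% serum.

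Among the falls, TAFA1, a secreted chemokine-like protein of the brain, went from 8.90 and 10.1 CPM in wild type to 3.06 and 4.10 CPM in ΔLEO1 cells. LINGO2, a neuronal leucine-rich repeat protein, went from 10.3 and 14.7 CPM to 4.90 and 4.56 CPM, but held 12.7 CPM in the ΔLEO1 library in 10% serum. ENSG00000251567 on chromosome 4 went from 13.3 and 13.5 CPM to 5.82 and 4.56 CPM, with 7.39 CPM in ΔLEO1 cells in 10% serum. LSP1P3 and ENSG00000289884 both fell by 1.17 on the log2 scale. DUX4L34 and FRG1EP were also lower and belong to families of near-identical copies, and the LSP1P3 window overlaps windows of 2 further genes that were called with it. None of the gene-poor windows was called by DESeq2 or with all 8 ChIP libraries (113 and 197 at an unadjusted p under 0.05, where edgeR on the 7 libraries had 634), 2 members were called with the input difference taken off, and the count fell to 1, 3, 3 and 8 without ΔLEO1 0.1% ChIP A, wild type 0.1% ChIP A, wild type 0.1% ChIP B and ΔLEO1 0.1% ChIP B.

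The peak regions of the series, a readout that the rule did not use, were also dense in gene-poor megabases. They were called on this same series, so their density is not separate support for the excess of reads. The 505 bins held 3743 of 16092 peak regions, 7.41 per Mb, and the 301 gene-dense bins held 936, 3.11 per Mb, a ratio of 2.38 (95% interval 2.22 to 2.56, exact binomial, counting error only). At least 1 peak region was centred in 499 of the 505 gene-poor and 266 of the 301 gene-dense bins. The annotation deposited with the peaks placed 42.3% of the gene-poor peak regions in LTR elements and 29.0% in LINE elements, against 17.8% and 12.0% in gene-dense bins. SINE elements held 7.21% and 11.1%. Exons, promoters and gene ends held 2.4% in gene-poor and 21.2% in gene-dense bins. The median distance to the nearest start was 217144 bp in gene-poor and 17126.5 bp in gene-dense bins. Because the rule chose bins by their number of starts, this distance and the share in exons, promoters and gene ends are tied to it. The repeat content of the bins themselves was not measured, so the repeat shares cannot be set against it. Only 251 of the 5111 members had a peak region in their window. Once called, peak regions had nearly the same log2 ChIP over input in both settings, 2.0 ± 0.27 and 1.99 ± 0.17 (SD, n = 7). Peak calling selects regions for their enrichment, so this likeness is tied to the calling.

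Of the 10 peak regions that differed between ΔLEO1 and wild type cells in 0.1% serum (0.0621% of those tested, edgeR), 2 lay in gene-poor bins, both lower in ΔLEO1 cells. The region chr4:136811804-136813093 held 50 and 44 reads in wild type and 18 and 10 reads in ΔLEO1 libraries, a log2 change of -1.37 ± 0.31 (SE, adjusted p = 0.0201). The region chr2:212106834-212107429, in an LTR element, held 27 and 23 reads in wild type and 7 and 1 in ΔLEO1 libraries (-1.98 ± 0.47, adjusted p = 0.043). DESeq2, all 8 ChIP libraries and the fit with the input difference taken off called 0 of them (45, 69 and 228 gene-poor regions at an unadjusted p under 0.05), and so did edgeR without any 1 of the 4 libraries compared.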

How the data were processed

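BJ-5ta ChIP and input libraries were analysed from 2 tables of whole-number read counts that the authors deposited, 1 over TSS windows and 1 over 16092 peak regions called on the series as a whole. Per the labels, the submitters' processing notes name bcl2fastq 2.20.0.422, STAR 2.7.10a, HOMER and the builds hg38 and dm6. Spike-in chromatin was added to each sample, but no spike-in count was used here, so levels are relative within a library. Groups came from the sample titles, and the column of each library was matched to its title, with 0 columns unmapped.

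Transcripts with the same window were counted once. Ratios of summed counts were tested across libraries with exact permutation tests. Windows, bins and peak regions were tested with edgeR 4.0.16 (quasi-likelihood, filterByExpr with a minimum of 10 reads, TMM scaling, prior count 2) in R 4.3.3, with 1 coefficient per group and Benjamini-Hochberg adjustment over all features of a table at 0.05. DESeq2 1.42.0 was an alternative. Scripts were tested on simulated data. Per-window log2 ratios had 0.5 reads added. Biotypes and promoters came from RefSeq tables of GRCh38.p14, and a promoter was matched to a start within 100 bp.

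Named genes were the 8 highest and 8 lowest by log2 ChIP over input among genes with a symbol and a mean of 20 input reads (1 window per gene), up to 5 rises and 5 falls per contrast among called windows without overlap of the libraries, the 3 highest and 3 lowest bins, and the members of 4 lists. The members and lists were chosen with earlier results of these data known. Other gene names were picked after their values were seen: genes in the bins of FERD3L, PCDH10, LCORL and EPHA6, and the genes of printed promoters.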

Additional observations from a re-analysis of the deposited data

How the results depend on the processing

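The excess of gene-poor windows kept its direction under each alternative tried, from 0.95 with non-overlapping windows to 1.49 for the median over windows, and was 1.15 to 1.26 without any 1 ChIP library (exact permutation test, 6 libraries cannot go below p = 0.0312). Windows higher in ChIP numbered 3635 by DESeq2 and 3910 to 4116 without any 1 library, and without TMM scaling the median of the members was 0.85 instead of 0.97.

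The difference between ΔLEO1 and wild type cells in 0.1% serum changed sign without division by input (-0.11) and ranged from -0.040 to 0.14 without any 1 library. The input difference was -4.74e-05 with non-overlapping windows and -0.0622 to 0.0673 without any 1 input. The serum difference over both genotypes was -0.48 to -0.37 without any 1 ChIP library, where the smallest exact p was 0.0667 or 0.1.

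Gene-poor windows called for LEO1 numbered 25, or 0 by DESeq2 or with all 8 ChIP libraries, 2 with the input difference taken off, and 1 to 29 without any 1 library. For serum they numbered 17, or 11 with no filter or with only the 4 libraries compared, 0 by DESeq2, with 8 libraries or with the input difference taken off, and 0 to 18 without any 1 library. Gene-poor bins called for LEO1 numbered 0, or 2 with 8 libraries and 37 in ChIP reads alone; for serum 43, or 96 with 8 libraries, 26 in ChIP reads alone, and 0 to 124 without any 1 library. Peak regions called for LEO1 numbered 2, or 0 by DESeq2, with 8 libraries or with the input difference taken off, and 0 to 2 without any 1 library. The ratio of peak density was 1.95 for peak regions that hold 20 or more ChIP reads on average. KCNJ3, at 0.05, was -0.0688 without TMM, -0.12 by DESeq2, and -0.35 to 0.17 without any 1 library. The cause of these changes was not tested.

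The letters A and B are not stated to pair libraries. Deviations of same-letter libraries over 2662 bins correlated at 0.064 (ChIP, genotypes in 0.1% serum), 0.065 (wild type ChIP, serum levels), 0.0914 (0.1% inputs) and 0.383 (10% inputs). With the letter as a replicate block the LEO1 difference was 0.05, the serum difference -0.47 and the input difference 0.01; windows called numbered 29 for LEO1 and 16 for serum.

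With a median of 20 ChIP reads in a gene-poor window, small changes at single starts were not detectable, and 2 libraries against 2 cannot pass an exact test.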

Other observations

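Gene-poor windows did not stand at the same level on every chromosome. Their mean log2 ChIP over input over the 7 libraries was lowest on chromosome 10 at 0.64 ± 0.19 (SD, 180 windows in 22 bins) and highest on chromosome 20 at 1.14 ± 0.22 (89 windows in 9 bins), followed by chromosome 16 at 1.13 ± 0.27 (119 windows in 9 bins). Chromosomes 4 and 2, which hold the most members with 543 and 517 windows, stood at 0.84 ± 0.21 and 0.78 ± 0.17. The spread within a chromosome is shared between its windows, since all 7 libraries move together, and the difference between chromosomes was not tested. On chromosomes 16 and 20 some of the gene-poor windows, RNA5-8SP2 and FRG1DP among them, belong to families of near-identical copies, and the part of such copies in the level of these chromosomes was not tested.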
